A study of Mus musculus with 614 samples.

Results

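The 10 genes described here encode the machinery by which a cell presents peptides on MHC class II molecules. They were chosen by name, as the rows Cd74, H2-Aa, H2-Ab1, H2-Eb1, H2-DMa, H2-DMb1, H2-DMb2, H2-Oa, H2-Ob and Ciita of a table that lists 43280 gene symbols, and all 10 were found. The values are TPM, transcript levels corrected for gene length and scaled to the same total in each cell, in 598 single cells from bone marrow and 16 from blood of untreated C57BL/6J mice aged 7 to 10 weeks. Cells were sorted by surface proteins, captured on a microfluidic chip and sequenced as full-length cDNA from oligo(dT) priming. The labels tie no cell to an animal. Each of the 12 sort gates was therefore taken as 1 sample, the values carry no p-value and every SD is a spread over cells.

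All gates were negative for a panel of lineage proteins (Lin-). LMPP, lymphoid-primed multipotent progenitors (65 cells), were c-Kit+ CD16/32int CD34+ Sca-1+ CD127-, and GMP, granulocyte and monocyte progenitors (51 cells), were c-Kit+ CD16/32hi CD34+ Sca-1-. CLP, common lymphoid progenitors (48 cells), were c-Kit-low CD127+ CD34+ Sca-1-low Flt3+ Thy-1-. CDP, common dendritic cell progenitors (58 cells), were CD11c- MHCII- Flt3+ c-Kit-int CD115- IL7R-. Precursors of dendritic cells (pre-DC) were CD11c+ MHCII- Flt3+ CD172α- B220- and those of marrow fell into 4 gates by the surface proteins SiglecH and Ly6C, namely SiglecH+Ly6C+ (45 cells), SiglecH-Ly6C+ (68 cells), SiglecH-Ly6C- (70 cells) and SiglecH+Ly6C- (70 cells). Blood pre-DC (16 cells) had the same phenotype without a SiglecH or Ly6C gate. Plasmacytoid dendritic cells (pDC, 27 cells) were B220+ SiglecH+. Pre-pro-B cells (30 cells) were Flt3+ B220+ CD43+ CD93+ CXCR4+ IL7R+ CD117-low CD24-low. Monocyte progenitors (cMoP, 66 cells) were CD11b- CD115+ Ly6C-high Flt3- c-Kit+. CDP and the 5 pre-DC gates were thus sorted as negative for MHC class II protein, while the phenotypes of the other 6 gates do not name it.

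MHC class II molecules are pairs of an alpha and a beta chain that carry peptides from endosomes to the surface of antigen-presenting cells, where CD4 T cells read them. The chains assemble on the invariant chain, encoded by Cd74, which blocks the peptide groove until proteases of the endosome degrade it. H2-DM then exchanges the remaining fragment for other peptides, and H2-O holds H2-DM in check. Transcription of this set is governed by CIITA, a co-activator that does not bind DNA itself and docks on factors assembled at short S, X and Y boxes in front of each gene. H2-Aa and H2-Ab1 encode the I-A molecule. H2-Eb1 encodes the beta chain of I-E, whose alpha chain gene is defective in C57BL/6 mice, so that I-E does not reach the surface of their cells. Its remnant H2-Ea-ps reached 1 TPM in 1 cMoP, 1 SiglecH-Ly6C- and 1 SiglecH+Ly6C- pre-DC.

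Of the members, 8 lie within 224335 bases on chromosome 17 (34092340 to 34316674, GENCODE on GRCm38), in the order H2-Oa, H2-DMa, H2-DMb2, H2-DMb1, H2-Ob, H2-Ab1, H2-Aa and H2-Eb1, of which only H2-Aa is on the minus strand. Ciita lies on chromosome 16 (10480059 to 10528418, plus strand). The stretches of 67 bases printed next show such motifs in front of the RefSeq starts of 5 of the genes. They come from RefSeq promoters on GRCm38.p6, which hold 7 of the members; H2-Ab1, Cd74 and Ciita are not among them. Capitals mark every copy of AGCAAC and TGATGC, the cores of the X1 and X2 boxes. They also mark TGATTGG, the CCAAT core of the Y box as read in this direction. All are given 5′ to 3′ on the strand of the gene. The stretch of H2-Aa holds TGATTGG alone, and that of H2-Eb1 holds TGATGC more than once. Whether each copy is part of a box was not tested.
H2-Oa, chr17:34092286-34092352, plus strand: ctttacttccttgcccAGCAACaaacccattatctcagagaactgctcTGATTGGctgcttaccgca
H2-DMb2, chr17:34145109-34145175, plus strand: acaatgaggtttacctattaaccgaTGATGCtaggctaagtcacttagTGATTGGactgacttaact
H2-Ob, chr17:34238798-34238864, plus strand: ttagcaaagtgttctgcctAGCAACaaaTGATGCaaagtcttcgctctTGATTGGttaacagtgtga
H2-Aa, chr17:34287855-34287921, minus strand: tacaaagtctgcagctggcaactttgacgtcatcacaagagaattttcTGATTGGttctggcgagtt
H2-Eb1, chr17:34305758-34305824, plus strand: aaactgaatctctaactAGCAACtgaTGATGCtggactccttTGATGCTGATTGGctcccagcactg

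Each window ran from 250 bases before to 50 bases after the RefSeq start and was searched on both strands. AGCAAC was in 3 of the 7 members and in 14.8% of the 32851 promoters of the table, TGATGC in 4 and in 10.9%, and TGATTGG in 6 and in 7.82%. AGCAAC or TGATGC at most 40 bases before TGATTGG was found in H2-Eb1, H2-DMb1, H2-DMb2, H2-Oa and H2-Ob, 5 of the 7, and in 0.274% of all promoters. The motifs were chosen with these promoters in view, so the shares are a description. The stretches of H2-Ob and H2-Eb1 hold all 3 core letter strings and that of H2-Oa holds AGCAAC and TGATTGG, while the levels of these genes over the gates differed, as described next. The start sites of RefSeq and GENCODE differ: the stretch of H2-DMb2 and that of H2-DMb1, which is not printed, lie within the GENCODE genes.

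Several facts about the cells bear on these values. The number of genes that reached 1 TPM in a cell, used in place of the unknown depth, had medians from 3280 in CLP to 6671 in cMoP. The transcripts of the sort proteins were higher in the gates sorted as positive in the marrow pre-DC: mean log2(TPM + 1) of Siglech was 9.41 in SiglecH+Ly6C- against 1.19 in SiglecH-Ly6C- pre-DC, and 7.33 in SiglecH+Ly6C+ against 2.21 in SiglecH-Ly6C+ pre-DC. Ly6c2 was at 9.59 in SiglecH-Ly6C+ against 0.76 in SiglecH-Ly6C- pre-DC, and at 11.28 in SiglecH+Ly6C+ against 5.38 in SiglecH+Ly6C- pre-DC, a gate sorted as negative for Ly6C. The libraries carry numbers that fall into 9 runs, whose meaning the labels do not give, and most gates lie in 1 run each. Of the SiglecH+Ly6C- pre-DC, 51 are in a run with the SiglecH+Ly6C+ cells, called the first run here, and 19 are in the next run with all SiglecH-Ly6C- cells, called the shared run. In 6 cMoP cells more than 8000 genes reached 1 TPM (8722 to 9977), while no other cell of the series had more than 7567. These 6 carry the label numbers 29 to 34, and cMoP results are given with and without them. Of B cell genes, Pax5, a transcription factor, was at 0 in every cell, while Cd79b, a chain of the B cell receptor complex, reached 1 TPM in cells of every gate, from 1 of 16 blood pre-DC and 11 of 70 SiglecH-Ly6C- pre-DC to 38 of 51 GMP. The part of Cd79b in the class II values was not tested. The genes C1qa, C1qb and C1qc, which mark macrophages, were at 0 in every pre-DC gate but SiglecH-Ly6C+, where the macrophage list summed to a median of 2.245 TPM and at most 61.97 TPM.

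The SiglecH-Ly6C- pre-DC stood above all other gates in the invariant chain and the classical chains Cd74, H2-Aa, H2-Ab1 and H2-Eb1, although the gate was sorted as negative for the protein. Cd74 was at 6.36 TPM in the lowest, 4410 TPM in the median and 27979 TPM in the highest of these 70 cells. H2-Aa ran from 6.15 through a median of 6822 to 30076 TPM, and H2-Ab1 from 12.6 through 5998 to 20276 TPM. Both I-A genes thus had values above 0 in every cell of the gate, and H2-Aa was below 100 TPM in 4 and H2-Ab1 in 3 of the 70 cells. The lowest H2-Ab1 value was close to the 11.5 TPM that was the lowest among SiglecH+Ly6C- cells of the same run. H2-Eb1, whose product has no partner chain in this strain, ran from 0 through 1610 to 12540 TPM. Together the 4 genes made up a median of 2.03% of all TPM of a SiglecH-Ly6C- pre-DC, with a range from 0.0038% to 8.27%. The next gate by this median was pDC, with 0.0907%.

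The other gates followed in a similar order for these 4 genes. For Cd74 the mean log2(TPM + 1) was 11.86 ± 2.21 (SD over cells) in SiglecH-Ly6C- pre-DC, 8.02 ± 3.19 in blood pre-DC, 7.90 ± 4.01 in pDC, 6.85 ± 3.81 in pre-pro-B cells and 6.68 ± 4.70 in SiglecH-Ly6C+ pre-DC. It was 3.73 in cMoP, 3.67 in SiglecH+Ly6C- pre-DC, 3.47 in CLP, 2.74 in CDP, 2.34 in GMP, 1.90 in SiglecH+Ly6C+ pre-DC and 0.74 in LMPP. H2-Aa came to 12.13 ± 2.37 in SiglecH-Ly6C- pre-DC, 7.35 in blood pre-DC, 6.45 in pDC, 5.31 in SiglecH-Ly6C+ pre-DC and 4.29 in pre-pro-B cells, and to 4.10 or less in the remaining 7 gates. The step from the first gate to the second was larger than the pooled SD over cells for Cd74, H2-Aa, H2-Ab1 and H2-Eb1, and these were the only 4 of 110 steps between neighbouring gates, over all 10 members, for which that held. Below the first gate no 2 neighbours in the order were separated by more than the spread of the cells, while gates farther apart were, such as Cd74 in blood pre-DC (8.02 ± 3.19) and LMPP (0.74 ± 2.13) or H2-Ab1 in blood pre-DC (7.47 ± 2.30) and CDP (2.42 ± 1.79).

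**Figure D1:**
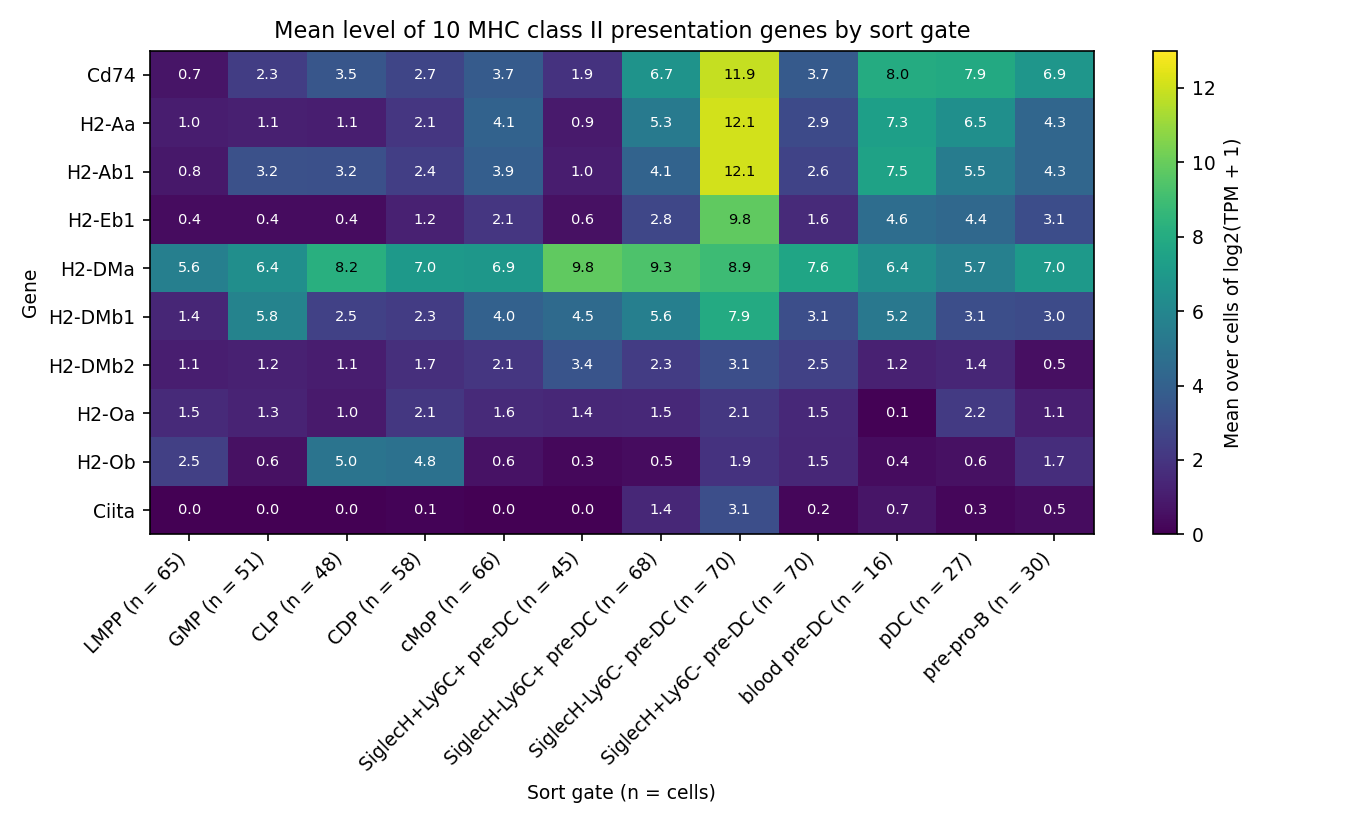
Mean over cells of log2(TPM + 1) of the 10 members (rows) in the 12 sort gates (columns), with the mean printed in each field. Cd74, H2-Aa, H2-Ab1 and H2-Eb1 reach 9.81 to 12.13 in SiglecH-Ly6C- pre-DC, whereas H2-DMa is at 5.60 or more in every gate and H2-Ob is highest in CLP (5.00) and CDP (4.84).

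Within several gates the classical genes were high in some cells and near 0 in others. A cell was counted when Cd74, H2-Aa, H2-Ab1 and H2-Eb1 were all at 100 TPM or more. This held for 60 of 70 SiglecH-Ly6C- pre-DC (85.7%, exact Clopper-Pearson 95% interval 75.3 to 92.9%, counting error only), and 3 cells of the gate had none of the 4 at that level. In SiglecH-Ly6C+ pre-DC it held for 15 of 68 (22.1%, 12.9 to 33.8%), while 29 cells had none and 24 had some. SiglecH-Ly6C+ pre-DC thus held cells with all 4 genes high beside cells with none of them high. The count was 5 of 16 in blood pre-DC, 5 of 27 in pDC, 4 of 30 in pre-pro-B cells, 5 of 70 in SiglecH+Ly6C- pre-DC and 1 of 45 in SiglecH+Ly6C+ pre-DC. No LMPP, GMP, CLP or CDP cell had all 4, which with 48 to 65 cells a gate allows shares of up to 4.62 to 6.25%.

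In cMoP all 4 genes were at 100 TPM or more in 6 of 66 cells (9.09%, 3.41 to 18.7%), and these were the 6 cells with more than 8000 genes. Without them the count was 0 of 60, which allows up to 5%. In the 6 cells Cd74 ran from 3424 through a median of 3804 to 7890 TPM and H2-Aa from 3804 through 5476 to 11089 TPM. In the other 60 the medians were 6.075 TPM for Cd74 and 9.215 TPM for H2-Aa, and the highest values 106 and 162.02 TPM. The 6 cells also held other transcripts of the gate, with Ly6c2 at 2062 to 3763 TPM and Mpo, a granule enzyme, at 4419 to 11818 TPM. The median of Ly6c2 was 3060 TPM in the 6 and 5659 TPM in the other 60, and that of Mpo 9557 and 9536 TPM. They had Id2, a regulator of dendritic and innate lymphoid cells, at 314.9 to 708 TPM, where the median of the other 60 was 0.775 TPM, and Cd83, which stabilises class II at the surface, at 88.9 to 624 TPM, where that median was 0. Cd86 had a median of 96.3 TPM in the 6 and 0 in the others. Of other genes of conventional dendritic cells, Zbtb46 had a median of 2.34 TPM in the 6 and 0.27 TPM in the other 60, and Flt3 of 5.24 and 0.365 TPM. The highest values were 59.53 and 4.55 TPM for Zbtb46 and 15.16 and 183.52 TPM for Flt3. Batf3 and Itgax had medians of 0 in both. Batf3 reached 24.08 TPM in the 6 and was 0 in all of the other 60, while Itgax reached 1.15 and 3.65 TPM. Clec9a, Xcr1 and Cd209a, also genes of conventional dendritic cells, were not compared between the 6 and the 60. Siglech, Ccr7, C1qa, C1qb and C1qc were 0 in all 6. The part of the number of genes or of the neighbouring label numbers in these values was not tested.

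**Figure D2:**
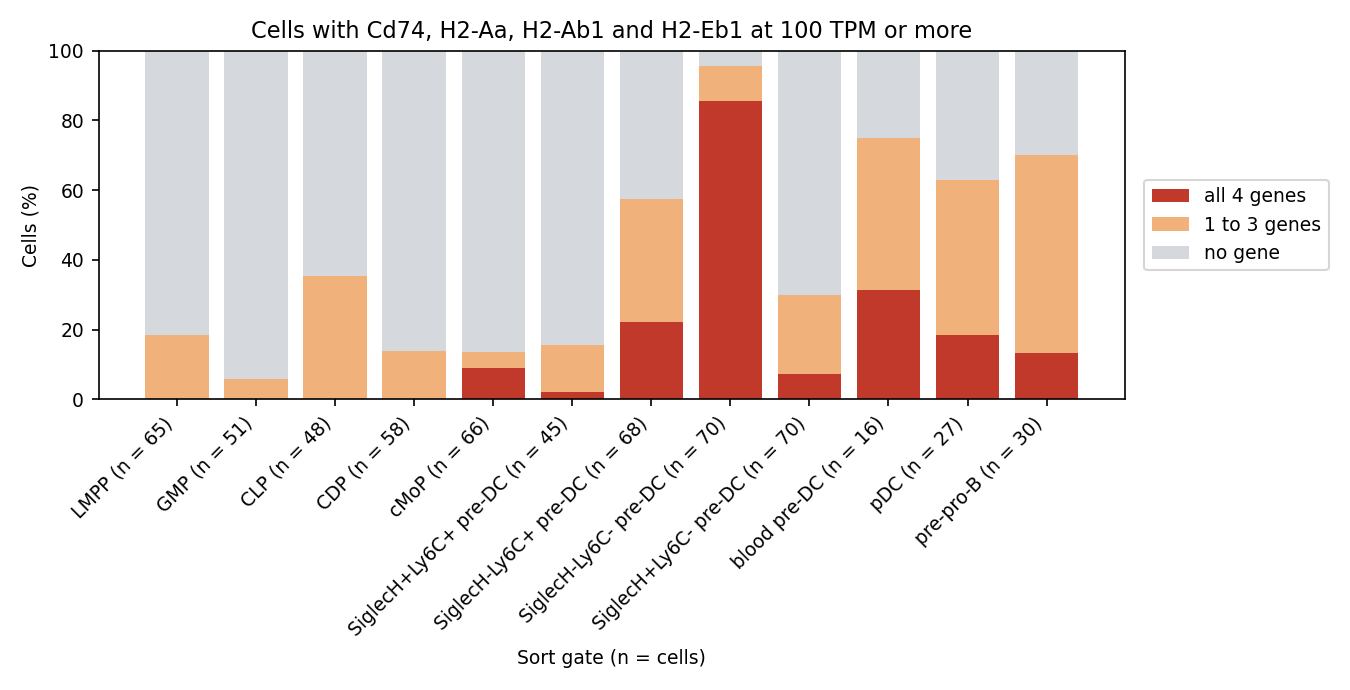
Percentage of the cells of each gate with 0, 1 to 3 or all 4 of Cd74, H2-Aa, H2-Ab1 and H2-Eb1 at 100 TPM or more; the number of cells stands beside each gate. All 4 were high in 85.7% of SiglecH-Ly6C- pre-DC and 22.1% of SiglecH-Ly6C+ pre-DC, and in no LMPP, GMP, CLP or CDP cell.

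The genes of the set appeared together in the same cells of the SiglecH-Ly6C+ gate. Cd74 there ran from 0 through 226 to 13041 TPM and was at 100 TPM or more in 39 of 68 cells. H2-Aa had a median of 6.585 TPM and was at that level in 24 cells, H2-Ab1 had a median of 3.64 TPM and was at that level in 20, and H2-Eb1 had a median of 0 and was at that level in 15. All 20 cells with H2-Ab1 at 100 TPM or more also had H2-Aa and Cd74 there. That is 29.4% of the cells, where the product of the single shares is 10.4% for the pair with H2-Aa and 16.9% for the pair with Cd74. Cd74 was thus the most frequent of the 4 at this level and H2-Eb1 the least, and the 15 cells with H2-Eb1 were those with all 4. Over the 68 cells, all of 1 run, Spearman's rho was 0.74 between Cd74 and H2-Ab1 and 0.64 between H2-Aa and H2-Ab1, as a description over cells that share their sample. The mean of the 4 genes had a rho of −0.13 with the number of genes per cell. Of the 15 cells with all 4, 8 were among the 9 cells with the label numbers 45 to 53 and 7 among the other 59, and these 8 cells had 3675 to 6127 genes against a median of 4221.5 in the gate. The block 45 to 53 was drawn around cells with all 4 after seeing the data, so this split is a description only. What these neighbouring numbers contribute was not tested.

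**Figure D3:**
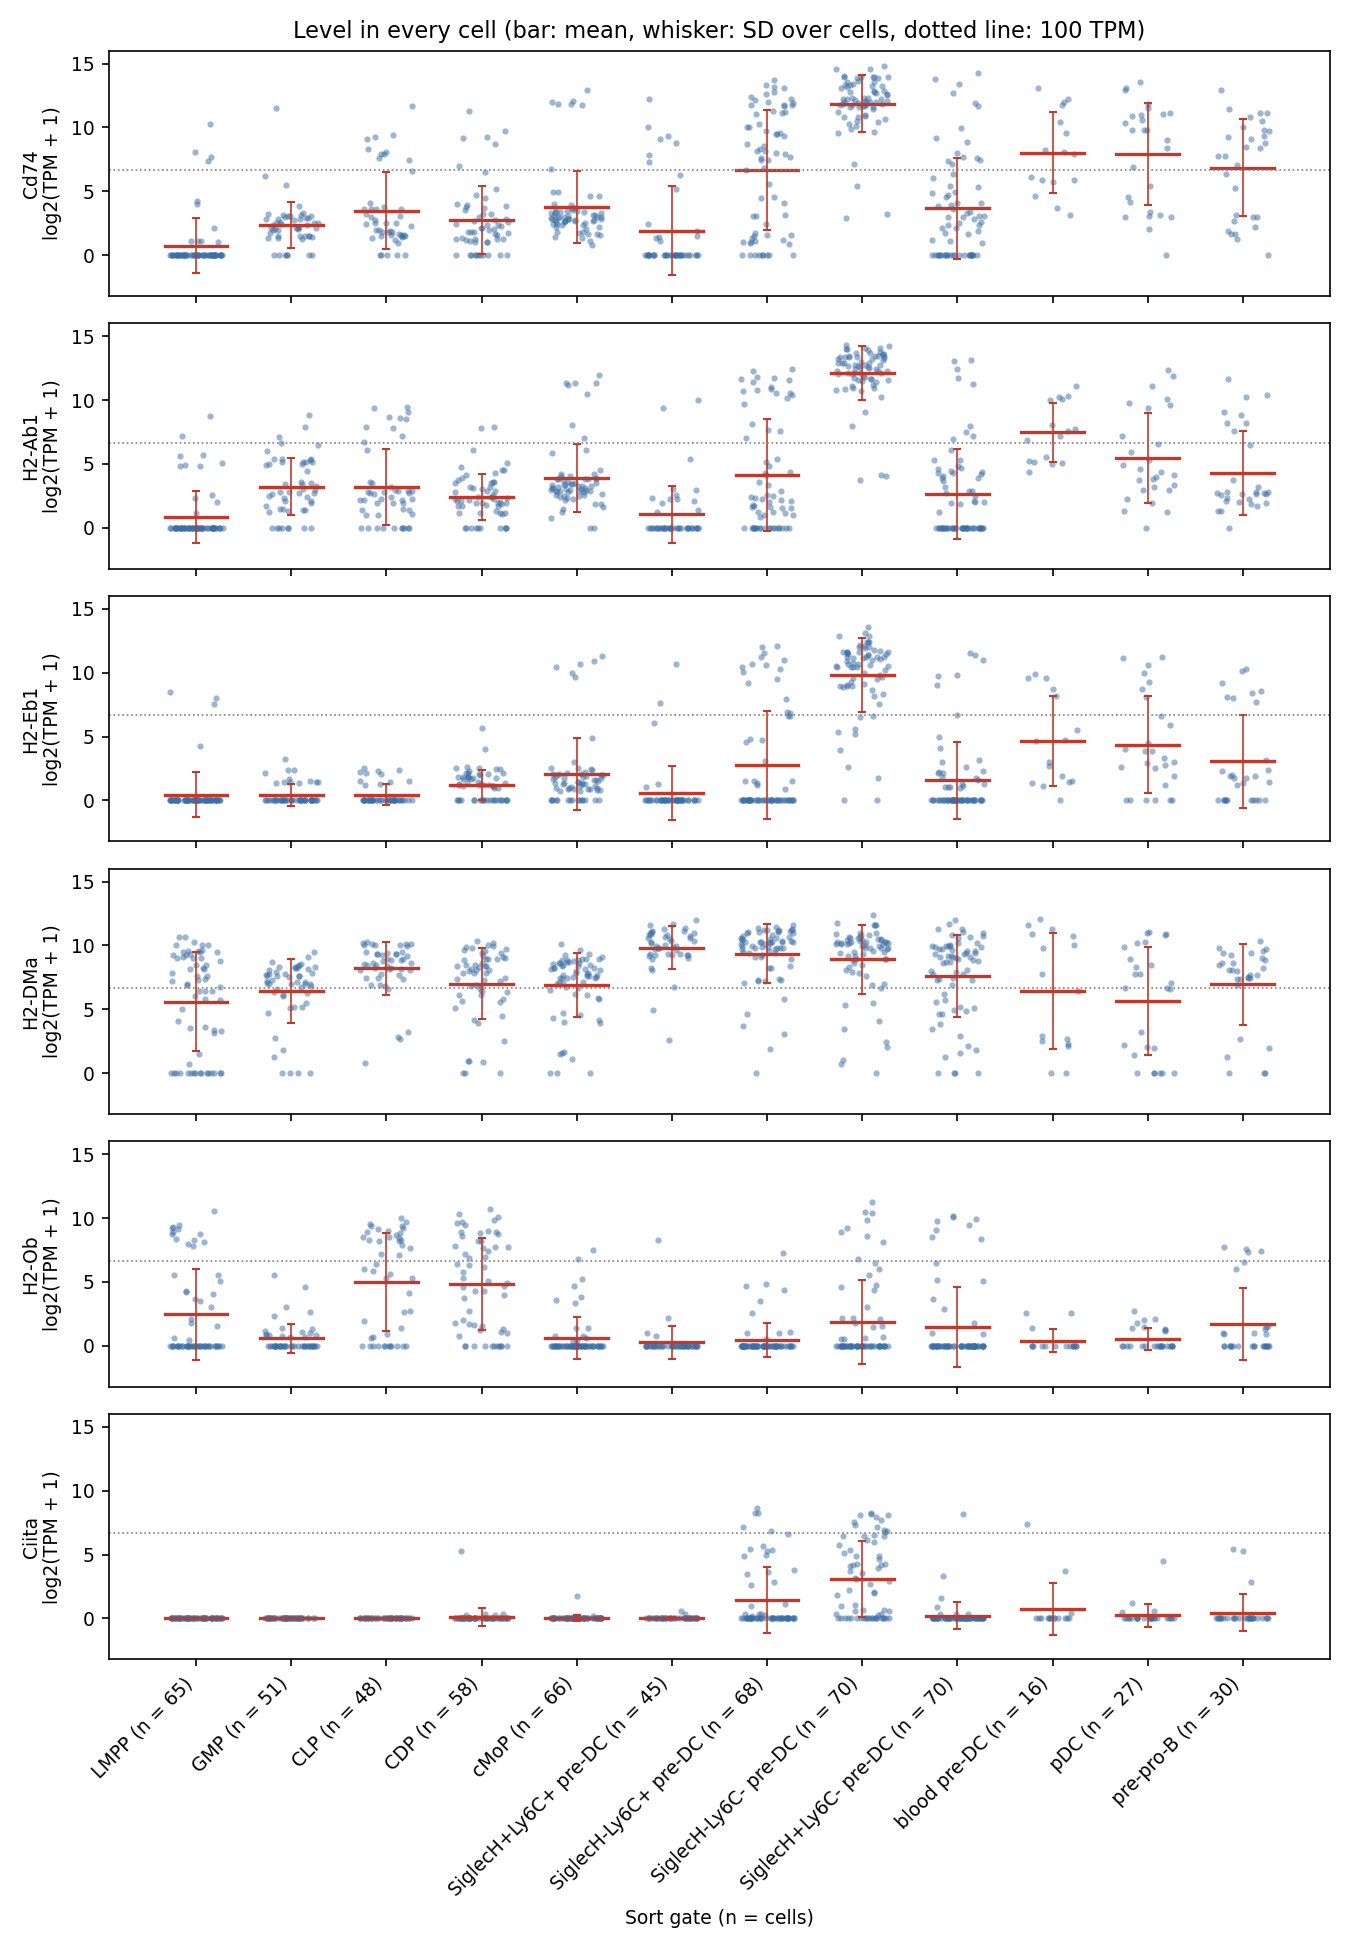
Log2(TPM + 1) in every cell (each point 1 cell, bar at the mean, whisker the SD over cells, dotted line at 100 TPM) of Cd74, H2-Ab1, H2-Eb1, H2-DMa, H2-Ob and Ciita in the 12 gates. Cd74 and H2-Ab1 are high in nearly all SiglecH-Ly6C- pre-DC and split into high and low cells in SiglecH-Ly6C+ pre-DC, H2-DMa is present in most cells of every gate, and Ciita reaches 100 TPM in few cells.

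Low values of the classical genes were far more widespread than high ones. H2-Aa was at 1 TPM or more in 66 of 66 cMoP cells, with a median of 10.3 TPM, but at 100 TPM or more in 7, of which 6 were the cells with most genes. In GMP, Cd74 was at 1 TPM or more in 44 of 51 cells and at 100 TPM or more in 1. The same pair of counts was 42 and 10 of 48 in CLP, 46 and 6 of 58 in CDP, and 10 and 4 of 65 in LMPP. H2-Aa reached 1 TPM in 24 of 51 GMP and 22 of 48 CLP, and H2-Eb1 in 12 and 11 of them. A few TPM in most cells of a gate thus held for Cd74 in GMP, CLP, CDP and cMoP but not for H2-Aa and H2-Eb1 in GMP and CLP, and whether such values are transcripts of the cell itself was not tested.

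In the SiglecH+Ly6C- pre-DC these low values differed between runs of 1 gate. In the 51 cells of the first run, H2-Ab1 had a median of 0, was at 1 TPM or more in 16 cells and at 100 TPM or more in 4. In the 19 cells of the shared run, which also holds the SiglecH-Ly6C- pre-DC, the lowest H2-Ab1 value was 11.5 TPM, the median was 24.5 TPM and 5 cells were at 100 TPM or more. Mean log2(TPM + 1) was 1.43 against 5.86 for H2-Ab1, 1.999 against 5.40 for H2-Aa, 3.12 against 5.14 for Cd74 and 0.91 against 3.30 for H2-Eb1. Every member of the 4 was thus higher in the run it shared with the high gate. Other members were higher there as well, H2-DMa at 8.70 against 7.22, H2-DMb1 at 3.82 against 2.88 and H2-Ob at 1.91 against 1.29. H2-DMb2, at 2.55 in the first and 2.44 in the shared run, H2-Oa, at 1.492 and 1.499, Ciita, at 0.20 and 0.24, and Ctss, a protease of the pathway, at 8.20 and 8.14, differed by less. What the run contributes was not tested, and the comparison with SiglecH+Ly6C- pre-DC is given within the shared run as well.

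**Figure D4:**
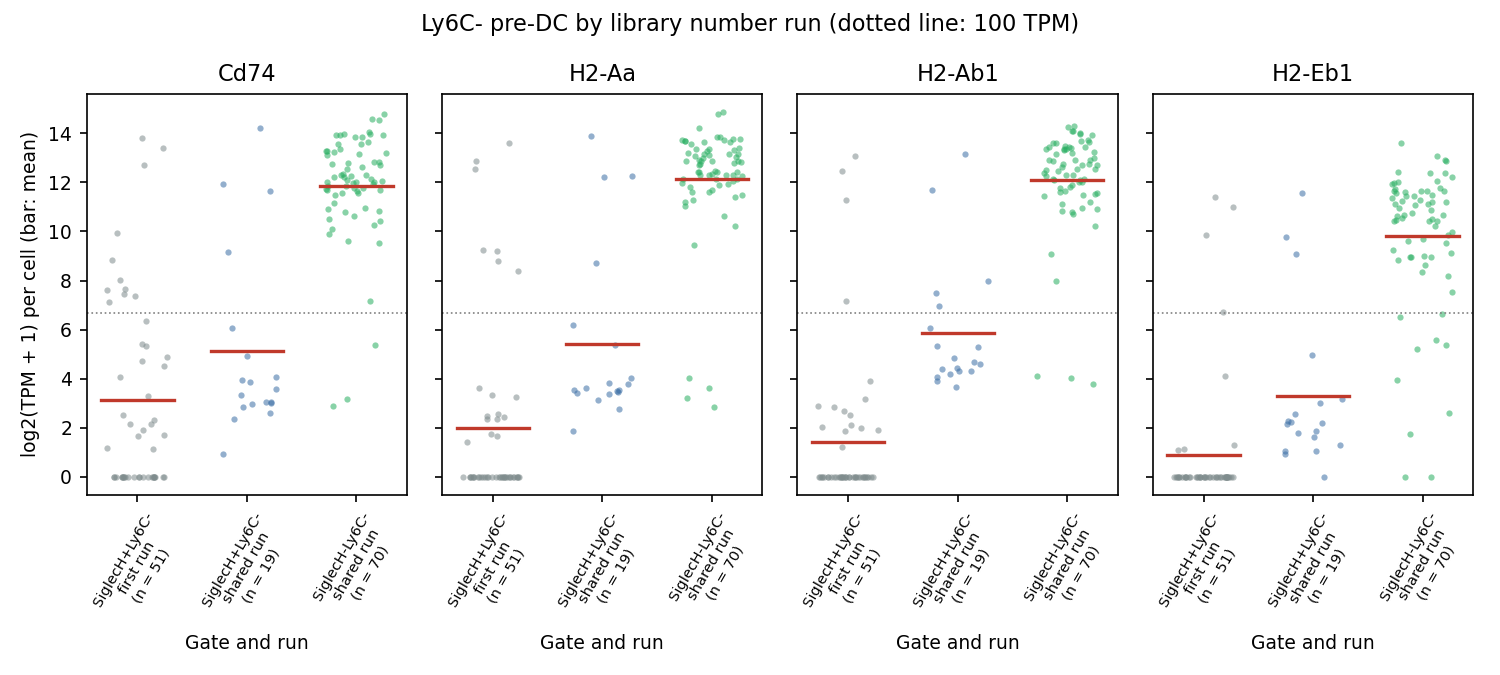
Log2(TPM + 1) per cell of Cd74, H2-Aa, H2-Ab1 and H2-Eb1 in SiglecH+Ly6C- pre-DC of the first run (51 cells), SiglecH+Ly6C- pre-DC of the shared run (19 cells) and SiglecH-Ly6C- pre-DC of the shared run (70 cells), with bars at the means and a dotted line at 100 TPM. No SiglecH+Ly6C- cell of the shared run lies below 11.5 TPM of H2-Ab1, while in the other run 35 of 51 lie below 1 TPM.

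Between the Ly6C- pre-DC gates, SiglecH-Ly6C- cells had a higher mean of all 10 members than SiglecH+Ly6C- cells, of 9 within the shared run. Differences are means of log2(TPM + 1) and are counted from 2 upward: 6 of the 10 members, namely Cd74, H2-Aa, H2-Ab1, H2-Eb1, H2-DMb1 and Ciita, passed this mark, against 0.694% of the 12528 genes tested, and their median was 3.85 against −0.20 over all genes. The difference was 9.47 for H2-Ab1, the highest of all genes tested, 9.21 for H2-Aa, 8.25 for H2-Eb1 and 8.19 for Cd74. These 4 differences were larger than the SD over cells of either gate, which lay between 2.10 and 3.97. H2-DMb1 differed by 4.80 and Ciita by 2.89. H2-DMa, H2-Oa, H2-DMb2 and H2-Ob differed by 1.28, 0.62, 0.58 and 0.42. Within the shared run the differences were 6.73 for Cd74, 6.74 for H2-Aa, 6.24 for H2-Ab1, 6.51 for H2-Eb1, 4.11 for H2-DMb1 and 2.86 for Ciita. H2-DMa differed there by 0.20, and H2-Ob was at 1.89 in SiglecH-Ly6C- and 1.91 in SiglecH+Ly6C- cells. Over all genes the median difference within this run was −0.17, and 35.5% of genes were higher in SiglecH-Ly6C- cells.

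Of the other genes of the pathway, March1 and Ctsl differed by 2 or more between these gates. Of the 7 factors that assemble on the S, X and Y boxes or act with them (Rfx5, Rfxap, Rfxank, Nfya, Nfyb, Nfyc and Creb1), 2 were higher and 5 lower in SiglecH-Ly6C- pre-DC, none by 2, with a median of −0.33. Rfx5, the DNA-binding subunit of RFX, had means of 0.89 or less in every gate. Of the 8 genes of class II loading and turnover 3 were higher and 4 lower. March1, a ubiquitin ligase that removes class II from the surface, was higher by 2.50, and Ctsl, a protease that can cleave the invariant chain, had a difference of −4.17. Ctss, the main protease for the invariant chain in dendritic cells, had a difference of −0.49. Of the 12 class I genes 8 were higher and 4 lower, none by 2, and B2m, the light chain of class I, was at 10.47 and 10.98. Cd80, Cd86 and Cd40, the costimulatory genes, differed by 0.27, 0.04 and −1.13. Of the 5 genes of mature dendritic cells, Ccr7 and Fscn1 were at 0 in every SiglecH-Ly6C- pre-DC and Ccl22 reached 1 TPM in none, while Cd86 did in 20 and Cd83 in 7 of the 70 cells, and the list summed to a median of 0 and at most 1193 TPM. The list of conventional dendritic cells, which includes Batf3 and Id2, summed to a median of 3542 TPM in this gate, 3094 in SiglecH-Ly6C+, 1197 in blood, 803.7 in SiglecH+Ly6C+ and 272.5 in SiglecH+Ly6C- pre-DC. Its part in the class II values was not tested.

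Between the Ly6C+ pre-DC gates, Cd74 was higher in SiglecH-Ly6C+ than in SiglecH+Ly6C+ cells by 4.78, H2-Aa by 4.36, H2-Ab1 by 3.09 and H2-Eb1 by 2.18. These 4 of the 10 members passed a difference of 2, against 0.596% of 11919 genes, and 8 were higher. The gates are in different runs, so run and gate cannot be told apart. Ciita was higher by 1.41 and H2-DMb1 by 1.09, while H2-DMa and H2-DMb2 had differences of −0.46 and −1.10. The differences of H2-Aa, H2-Ab1 and H2-Eb1 were smaller than the SD over SiglecH-Ly6C+ cells, 5.02, 4.38 and 4.23, and that of Cd74 was close to its SD of 4.70, in a gate that holds high and low cells side by side. No gene of the transcription, loading, class I or costimulation lists differed by 2.

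Among SiglecH- pre-DC, the Ly6C- cells were above the Ly6C+ cells in 9 of 10 members. Cd74, H2-Aa, H2-Ab1, H2-Eb1 and H2-DMb1 passed a difference of 2, against 0.609% of 11817 genes, with a median of 2.002 over the members and 0.01 over all genes. The difference was 7.98 for H2-Ab1, the highest of all genes tested, 7.04 for H2-Eb1, 6.83 for H2-Aa, 5.18 for Cd74, 2.33 for H2-DMb1 and 1.67 for Ciita, and it was −0.44 for H2-DMa. These gates too are in different runs, and run and gate cannot be told apart. Here 3 class I genes also passed, Pdia3, a chaperone of the loading complex, by 2.93, and Psmb9 and Psmb8, subunits of the immunoproteasome, by 2.57 and 2.38. Ifi30, a thiol reductase of the endosome, had a difference of −2.62.

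The chains of the peptide editor H2-DM differed in their pattern: H2-DMb1 was highest in the same gate as the classical chains, and H2-DMa and H2-DMb2 were not. H2-DMa, its alpha chain, was at 5.60 or more in every gate. It was highest by the mean in SiglecH+Ly6C+ pre-DC (9.81 ± 1.69), with 4.98, 1063 and 4134 TPM in the lowest, median and highest cell. It was lowest by the mean in LMPP, with a median of 120 TPM. SiglecH+Ly6C+ pre-DC were among the lowest gates in H2-Aa (0.94) and H2-Ab1 (1.04). Their lead in mean H2-DMa over SiglecH-Ly6C+ pre-DC was 0.46, below the pooled SD over cells of 2.02. By the median, SiglecH-Ly6C+ pre-DC were higher, at 1087.51 TPM. SiglecH-Ly6C- pre-DC, the gate highest in the classical chains, came next by the mean, at 8.90. The beta chain H2-DMb1 was highest in SiglecH-Ly6C- pre-DC (7.93, median 668.4 TPM), followed by GMP (5.83, median 117 TPM) and SiglecH-Ly6C+ pre-DC (5.60, median 54.8 TPM), and lowest in LMPP (1.40, median 0). In GMP, H2-DMb1 was at 100 TPM or more in 27 of 51 cells while Cd74 was in 1. The second beta chain gene H2-DMb2 was at a mean of 3.39 or less in every gate. H2-DMb1 and H2-DMb2 share 369 stretches of 50 bases, 27.2% of those of the H2-DMb1 transcript and 21.2% of those of H2-DMb2, so the split of reads between them is uncertain. Within SiglecH-Ly6C+ pre-DC the mean of the 4 classical genes had a Spearman's rho of 0.01 with H2-DMa and 0.43 with H2-DMb1 over 68 cells.

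H2-O, the inhibitor of H2-DM, was found in gates with and without the classical chains, and H2-Ob was highest in gates where they were low. H2-Ob, its beta chain, was highest in CLP, with a mean of 5.00 ± 3.85, a median of 60.2 TPM and 22 of 48 cells at 100 TPM or more, and in CDP, with 4.84 ± 3.62, a median of 30.8 TPM and 23 of 58 cells. LMPP followed at 2.46 with 13 of 65 cells, and SiglecH-Ly6C- pre-DC at 1.89 with 9 of 70. No cell was at 100 TPM or more among 27 pDC, 16 blood pre-DC and 51 GMP. CLP, CDP and LMPP, the gates with the most H2-Ob, were thus among those in which no cell had all 4 classical genes at 100 TPM or more. The alpha chain H2-Oa was at 2.22 or less in every gate. Its highest mean, in pDC, was close to the 2.13 of CDP and the 2.11 of SiglecH-Ly6C- pre-DC. It was 1.91 in the 24 pDC that share the run of CDP and 4.66 in the other 3. H2-Oa reached 1 TPM in 40 of 70 SiglecH-Ly6C- pre-DC (57.1%), where H2-Ob did in 22. H2-Oa and H2-Ob together reached 1 TPM in 6 of 48 CLP (12.5%, where the product of the single shares is 12.9%) and in 24 of 58 CDP (41.4%, product 41.02%). At 10 TPM both were in 24.1% of CDP, where the product is 17.1%, and at 1 TPM in 21.4% of SiglecH-Ly6C- pre-DC, where it is 17.96%.

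Ciita was most frequent in the SiglecH- pre-DC gates and was seen in few other cells. It reached 1 TPM in 41 of 70 SiglecH-Ly6C- pre-DC (58.6%, 46.2 to 70.2%), with a median of 6.145 TPM and a highest value of 306.1 TPM, and in 18 of 68 SiglecH-Ly6C+ pre-DC (26.5%, 16.5 to 38.6%), with a median of 0 and a highest value of 410 TPM. It was in 3 of 70 SiglecH+Ly6C- pre-DC, 2 of 16 blood pre-DC, 2 of 27 pDC, 3 of 30 pre-pro-B cells, 1 of 58 CDP and 1 of 66 cMoP. In LMPP, GMP, CLP and SiglecH+Ly6C+ pre-DC it was at that level in no cell, which allows up to 4.62%, 5.88%, 6.25% and 6.67% of cells. The table gives 1 value per gene, so the promoters of Ciita that serve different cell types cannot be told apart.

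Cell by cell, Ciita and the classical genes overlapped in part. Of the 18 SiglecH-Ly6C+ pre-DC with Ciita at 1 TPM or more, 10 had all 4 classical genes at 100 TPM or more, and 5 cells with all 4 had no Ciita at that level. Spearman's rho over the 68 cells was 0.60 between Ciita and Cd74, 0.51 between Ciita and H2-Ab1 and 0.58 between Ciita and the mean of the 4 genes. In SiglecH-Ly6C- pre-DC, where nearly all cells are high, 37 cells had both, 4 had Ciita alone and 23 had all 4 without Ciita at 1 TPM or more, and rho was 0.08 between Ciita and Cd74, beside 0.80 between Cd74 and H2-Ab1. The mean of the 4 genes there had a rho of −0.43 with the number of genes per cell. All 3 SiglecH+Ly6C- pre-DC with Ciita were among the 5 with all 4 classical genes, and so were both pDC among their 5. Of the 6 cMoP cells with all 4, 1 had Ciita, at 2.32 TPM, and the other 60 cMoP had none at 1 TPM or more.

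Plasmacytoid dendritic cells held the classical genes in some cells. Cd74 ran from 0 through a median of 875.55 to 11786 TPM, and 17 of 27 pDC were at 100 TPM or more. H2-Aa had a median of 23.4 TPM with 11 cells at that level, H2-Ab1 of 19.6 TPM with 8 and H2-Eb1 of 9.09 TPM with 7. Against SiglecH+Ly6C- pre-DC, Cd74 was higher in pDC by 4.23, H2-Aa by 3.53, H2-Ab1 by 2.84 and H2-Eb1 by 2.81, so 4 of 10 members passed a difference of 2, against 0.389% of 12857 genes. Of all genes 30.7% were higher in pDC on the deposited scale and 41.6% after division by size factors, which moved the median of all genes by 0.15. H2-DMa had a difference of −1.95. No run holds both gates. Against the 19 SiglecH+Ly6C- cells of the shared run alone, the difference was 2.76 for Cd74, 1.06 for H2-Aa, 1.07 for H2-Eb1 and −0.39 for H2-Ab1. The median over all genes was −0.24 with these 19 cells.

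Against CDP, pDC were higher in Cd74 by 5.16, H2-Aa by 4.40, H2-Eb1 by 3.16 and H2-Ab1 by 3.06, and these 4 of 10 members passed a difference of 2, against 1.13% of 13227 genes. The split over all genes was 32.1% higher in pDC, or 42.7% after division by size factors, which moved the median by 0.17. H2-Ob had a difference of −4.28, and H2-DMa of −1.35. Within the run that holds all CDP and 24 of the pDC, the values were 5.09, 4.11, 3.07 and 2.85 for the 4 classical genes in the same order and −4.29 for H2-Ob. Ctsl, at 6.81 in pDC, was higher by 4.86 and Ctss by 2.59, while no class I gene passed.

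Pre-pro-B cells and CLP lie in 1 run. Cd74 was higher in pre-pro-B cells by 3.38, H2-Aa by 3.20 and H2-Eb1 by 2.62, so 3 of 10 members passed a difference of 2, against 2.61% of 9637 genes. H2-Ab1 was higher by 1.13. H2-Ob had a difference of −3.30, with 4 of 30 pre-pro-B cells and 22 of 48 CLP at 100 TPM or more. It was the 1 member lower by 2 or more, as were 129 of the 9637 genes. In the median pre-pro-B cell Cd74 was at 277.45 TPM, H2-Aa at 5.37 and H2-Ab1 at 5.60 TPM, and all 4 classical genes were at 100 TPM or more in 4 of 30 cells. The invariant chain reached 100 TPM in 18 of the 30 cells, more than H2-Aa in 10 and H2-Ab1 in 8. Ctsl, at 7.46, was higher than in CLP by 5.11 and Ifi30 by 3.21.

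Blood pre-DC, set against the 4 pre-DC gates of marrow averaged with equal weight, had 2 of 10 members higher by 2 or more, H2-Ab1 with 2.49 and H2-Aa with 2.02, against 0.791% of 13784 genes. Cd74 differed by 1.99 and H2-Eb1 by 0.94. H2-DMa, with −2.47, was the 1 member lower by 2 or more, as were 510 of the 13784 genes. The median over the members was −0.28, beside −0.25 over all genes. Cd74 ran from 7.86 through 253.8 to 8578 TPM and H2-Ab1 from 19.5 through 168.5 to 2235 TPM in the 16 cells, none of which was at 0 for these genes. The marrow mean joins 1 high gate with 3 lower ones, and the blood cells were below SiglecH-Ly6C- pre-DC and above the other marrow gates in H2-Aa and H2-Ab1. The 16 cells form a run of their own, and 2 of the 5 genes of the mature dendritic cell list (Ccr7 in 10 and Cd86 in 14 cells) reached 1 TPM in 50% or more of them. Mitochondrial transcripts made up to 74.0% of TPM in blood pre-DC, 58.2% in pDC, 47.7% in cMoP and at most 18.2% in the other gates. Their gate medians lay between 3.03% in pre-pro-B cells and 9.38% in pDC, with 7.27% in blood pre-DC. The monocyte list summed to a median of 7454 TPM in blood pre-DC, against 495.69 to 5391 TPM in the marrow pre-DC gates, and the erythroid list to a median of 0 and at most 25296 TPM. The part of these measures in the class II values was not tested.

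Against cMoP, SiglecH-Ly6C+ pre-DC were higher in Cd74 by 2.95 and in H2-DMa by 2.46, so 2 of 10 members passed a difference of 2, against 0.955% of 13301 genes. H2-Aa was higher by 1.21, H2-Eb1 by 0.71 and H2-Ab1 by 0.22. Without the 6 cMoP cells with more than 8000 genes, the differences were 3.78 for Cd74, 2.67 for H2-DMa, 2.04 for H2-Aa, 1.55 for H2-Eb1 and 0.96 for H2-Ab1. The median over all genes was −0.56 with all cells and −0.50 without the 6. Ciita differed by 1.40 with all cells and 1.43 without the 6. Ifi30, Ctss and March1 were higher in SiglecH-Ly6C+ pre-DC by 5.16, 3.43 and 3.50, and Pdia3 and Calr, chaperones of class I, had differences of −3.95 and −2.55. These 2 of the 12 class I genes were lower by 2 or more, as were 1738 of the 13301 genes. The gates lie in different runs.

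**Figure D5:**
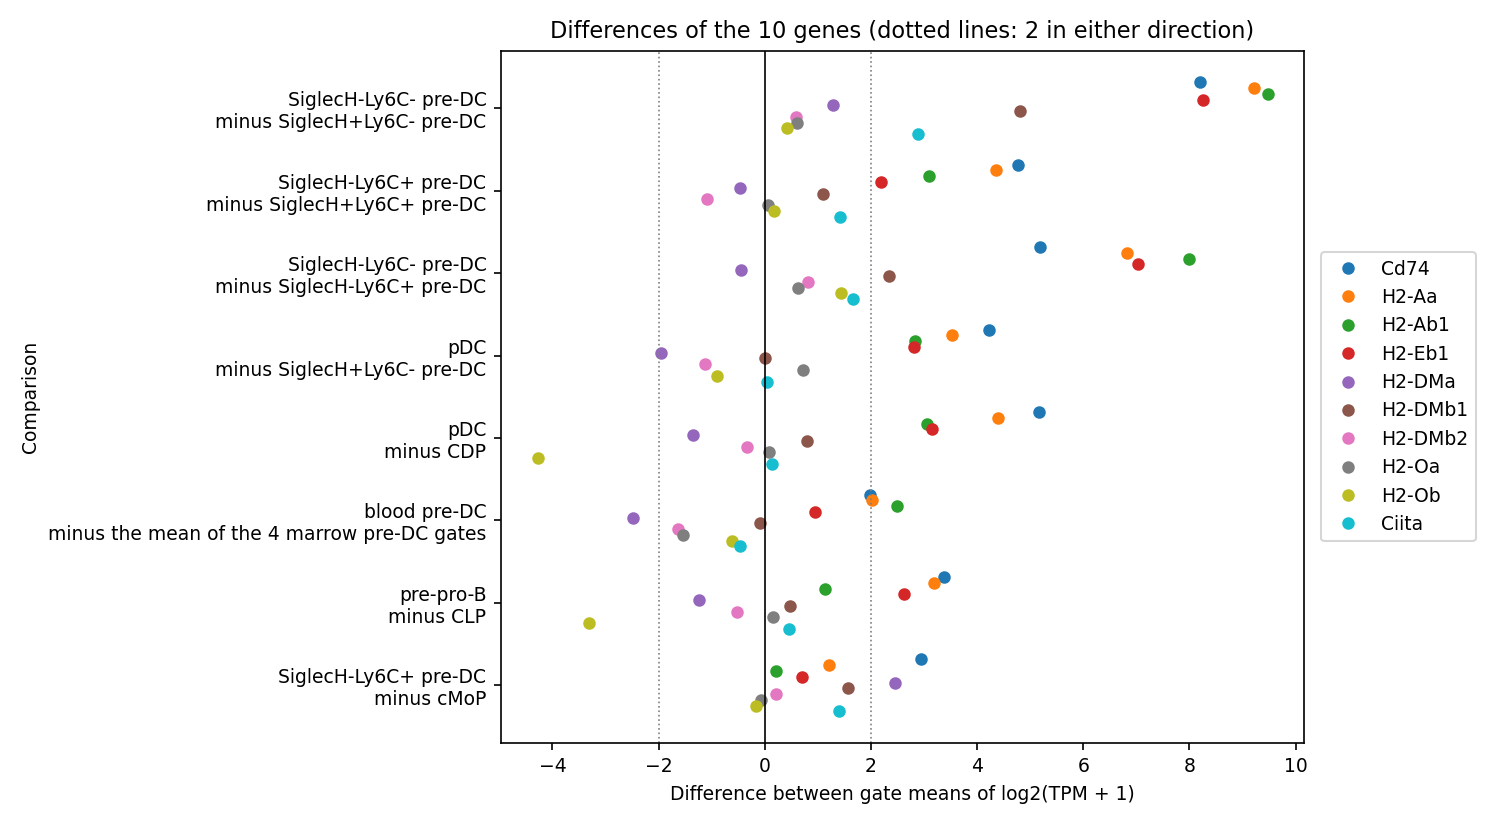
Difference between gates in mean log2(TPM + 1) of the 10 members (points) in 8 comparisons, with dotted lines at −2 and 2. H2-Ab1 reaches 9.47 in SiglecH-Ly6C- minus SiglecH+Ly6C- pre-DC, and H2-Ob lies at −4.28 in pDC minus CDP and at −3.30 in pre-pro-B minus CLP.

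The gate means of the 4 classical genes were set against those of 6257 genes. Pearson's r over the 12 gates, given as a description, was 0.87 for Ciita, 0.67 for H2-DMb1, 0.21 for H2-DMb2, 0.14 for H2-DMa, 0.11 for H2-Oa and −0.23 for H2-Ob. The genes of most similar pattern outside the set were Ifi205 (r of 0.87), Batf3, a factor needed for one branch of conventional dendritic cells (0.84), Id2 (0.83), Phf11b, Slc46a3 and Bcan (each 0.83), Ckb and Cd97 (each 0.82), Wdfy4, which serves cross-presentation (0.81), and Plbd1 (0.79). All but Cd97 were highest in SiglecH-Ly6C- pre-DC, the gate that also leads the classical genes. Without this gate and blood pre-DC, r was 0.57 for Ciita, 0.43 for Ifi205, 0.36 for Batf3, 0.42 for Id2, 0.40 for Slc46a3, 0.35 for Wdfy4, 0.19 for Plbd1 and −0.17 for Ckb. It was 0.72 for Bcan, 0.61 for Cd97 and 0.59 for Phf11b. Inside SiglecH-Ly6C+ pre-DC, Spearman's rho with the mean of the 4 genes was taken over 68 cells and 4233 genes. The highest were 0.41 for Txnip, 0.40 for Ccl6 and 0.37 for Btg2, all below the 0.58 of Ciita. Ciita itself reached 1 TPM in too few of these cells to be among the 4233 genes. The others of the first 10, Abcc2, Phf11b, Slmo2, Mkrn1, Ing4, Jun and Naaa, were between 0.35 and 0.36. Phf11b was on both lists. The lowest rho were larger in size than that of Txnip, with −0.49 for Syce2 and −0.46 for Pnn and Prdx5. Lgals1 and Lig1 followed, each at −0.44. What rho the most extreme of 4233 unrelated genes would reach was not tested.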

How the data were processed

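Single-cell libraries in 12 gates were used, 598 from marrow and 16 from blood, grouped by the labels. The authors deposited TPM per gene symbol and cell, made with RSEM 1.2.19 on GRCm38, per the submitters' processing notes; no source used here names the aligner or the annotation. Totals per cell were 997617 to 1000000, and TPM keep no read counts, so depth and counting precision of a level are unknown. The members, lists and comparisons were chosen with earlier results of these data known.

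Values were log2(TPM + 1), averaged over the cells of a gate. Medians and percentages over all genes used those that reached 1 TPM in 10% or more of the cells of a gate compared. Counts of members that passed a difference of 2, and the share of genes beside them, cover the upward direction only. Shares carry exact Clopper-Pearson 95% intervals; a share of 0 carries the limit of 3 counts. With 1 sample per gate nothing was tested. No doublet caller was run. The genes named are the members, the pathway lists and the 10 of highest correlation over gates (reaching 1 TPM in 50% of a gate's cells) and over SiglecH-Ly6C+ cells (30%), leaving out predicted, ribosomal, mitochondrial, sex-linked, receptor and sort genes. Some genes of lowest correlation over SiglecH-Ly6C+ cells are named as well. The 6 cMoP cells with more than 8000 genes were singled out after seeing the data. Other pseudocounts, scalings, cells and thresholds were tried. The tools were scipy 1.17.1, pandas 2.3.3, numpy 2.4.6, matplotlib 3.10.9 and Python 3.11.15. The computation was tested on simulated data.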

Additional observations from a re-analysis of the deposited data

Results flagged for a closer look

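In 2 members, H2-DMa and H2-DMb2, the difference of SiglecH- minus SiglecH+ pre-DC had opposite signs among Ly6C- and Ly6C+ cells. H2-DMa differed by 1.28 in the Ly6C- gates and by −0.46 in the Ly6C+ gates, and by 0.20 among Ly6C- cells of the shared run alone. H2-DMb2 differed by 0.58 in the Ly6C- gates and by −1.10 in the Ly6C+ gates. The difference between these effects was not tested, because each gate is 1 sample, and all 4 values were below the SD over cells. H2-DMb2 shares stretches with H2-DMb1, so its level is uncertain.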

How the results depend on the processing

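Under the alternatives run, the median difference over the members moved from its main value by less than the SD over cells in all 8 comparisons. That mark is wide, and changes of sign can lie within it. The median difference was 2.35 to 5.36 for SiglecH-Ly6C- minus SiglecH+Ly6C- pre-DC, 0.66 to 1.92 for SiglecH-Ly6C+ minus SiglecH+Ly6C+, 1.35 to 2.74 for SiglecH-Ly6C- minus SiglecH-Ly6C+, 0.39 to 1.69 for pDC minus CDP, 0.19 to 1.21 for pre-pro-B minus CLP and 0.46 to 1.49 for SiglecH-Ly6C+ minus cMoP. It changed sign for pDC minus SiglecH+Ly6C- (−0.19 to 0.72) and blood pre-DC (−0.42 to 0.0070). The count of members higher by 2 or more changed as follows, given without the share of all genes past the same mark. These counts alone do not tell a change of the members from a change of the whole scale. For SiglecH-Ly6C+ minus SiglecH+Ly6C+ pre-DC the count was 4, and 2 with a pseudocount of 10. For pDC minus SiglecH+Ly6C- pre-DC it was 4, and 2 with a pseudocount of 10, 0 with the log2 of the mean TPM and 1 with the pre-DC of the shared run, an alternative chosen after seeing the data, in which H2-Ab1 differed by −0.39. For blood pre-DC it was 2, and 4 with a pseudocount of 0.1, 0 with a pseudocount of 10 and 0 with the log2 of the mean TPM, where H2-Ab1 differed by −0.073. For SiglecH-Ly6C+ pre-DC minus cMoP it was 2, and 5 counted from a difference of 1. On the log2 of the mean TPM, the classical genes differed by 2.94 to 4.03 between the Ly6C- pre-DC gates. That setting raised the share of all genes higher in the first gate from 30.3% to 41.3% there, from 32.1% to 43.03% in pDC minus CDP, and in SiglecH-Ly6C+ pre-DC minus cMoP it raised 18.2% to 46.2%. Of 120 pairs of a member and a gate, 67 had the gene at 1 TPM in 50% of cells or more, 34 had it at 10 TPM and 24 at 100 TPM. All 4 classical genes were in 33.8% of SiglecH-Ly6C+ pre-DC at 1 TPM and in 22.1% at 100 TPM. Of the 10 genes of most similar pattern, 4 were shared with Spearman's rho and 0 with Pearson's r without SiglecH-Ly6C- and blood pre-DC. The cause of these shifts was not tested. No paired analysis was possible because each gate is 1 sample and no test was run. The sample size limits all values, and 4 cells under 2000 genes and 37 cells with the most genes were left out in alternatives that gave no other change of direction in a difference of 2 or more.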
